A study of Mus musculus with 15 samples.

Results

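Glutathione S-transferases join glutathione, the main small thiol of cells, to reactive compounds, and several of them also reduce lipid hydroperoxides. The conjugates leave the cell through export pumps, and in the kidney they are trimmed and acetylated along the proximal tubule to mercapturates, which pass into the urine. The soluble enzymes fall into classes named by Greek letters, and the tubule is known for its alpha class. The 10 genes described here were taken by name: Gsta2, Gsta3 and Gsta4 of the alpha class, Gstm1, Gstm2 and Gstm5 of the mu class, and Gstp1, Gstt1, Gstk1 and Gsto1 of the pi, theta, kappa and omega classes. They are 10 of 19057 genes with a probe on the arrays and hold 17 of 45281 probes. Of the 17 probes, 16 were detected well enough to be tested, and each of the 10 genes had at least 1 tested probe.

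The samples were kidneys of male C57BL/6 mice, hybridised to Illumina arrays that cover the mouse genome. All mice ate an AIN-93G diet and were followed from weaning at 3 weeks of age. Control mice drank freely and were killed at 4 weeks (CON 1W, 4 arrays) or 7 weeks (CON 4W, 3 arrays). Restricted mice had a water bottle for 15 min a day and were killed at the same ages (RES 1W and RES 4W, 4 arrays each), a day after the bottle was last given. The paper reports that restricted mice ate less at the start and reached normal food intake after the first week. The part of food intake in the changes after restriction was not tested. Levels are log2 of the normalized intensity. Changes are log2 fold changes with their standard error (SE) from a limma model over the 15 arrays, and a probe was called changed at a Benjamini-Hochberg adjusted p under 0.05 over 19027 tested probes. A level tells arrays apart for 1 probe only and was not set against another probe's. In whole kidney, fewer cells of a type and less RNA per cell cannot be told apart.

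The arrays detected between 15295 and 17433 probes each. RES 4W replicate 1 stood apart from its group. Its mean correlation was 0.978 with RES 4W replicates 2 to 4 and 0.988 with CON 4W, and its nearest array was CON 4W replicate 3. For the other 14 of 15 arrays the nearest array belonged to the same group. The RES 4W changes of the members are therefore given with and without this array. It was set aside for its likeness to CON 4W in these same data. Leaving it out therefore tends to widen the RES 4W changes, and calls made without it are descriptive. Of 10 proximal tubule markers, 9 were detected on every array, whereas the adrenal genes Cyp11b1, Hsd3b1 and Cyp21a1, the muscle genes Myh4 and Ckm and the liver genes Alb, Ahsg and Cyp7a1 were detected on none. The other genes of these lists, Cyp11a1, Star, Acta1, Serpina1a and Apoa2, were detected on some or all arrays. Apoa2 was detected on all and called higher in RES 4W (0.52, adjusted p = 0.0458), by 0.65 without RES 4W replicate 1 (adjusted p = 0.00157). The summed intensity of the proximal tubule markers was 56277 to 60771 in CON 1W and lower, at 46289 to 51533, in RES 1W, without overlap. At 7 weeks it was 62616 to 65501 in CON 4W and, overlapping, 55691 to 62892 in RES 4W, or 55691 to 57981 without RES 4W replicate 1, below all CON 4W arrays. The single markers did not all follow the sum. In RES 1W, Slc22a6 and Acsm3 were called lower. In RES 4W with all arrays, the only markers of the 10 called were Slc5a2 (0.96, adjusted p = 0.00973) and Slc5a12 (0.62, adjusted p = 0.0138), both higher. Without RES 4W replicate 1 they rose by 1.12 and 0.72 (adjusted p = 4.23e-05 and 0.000238). In that fit Kap (-0.72, adjusted p = 0.000891) and Slc22a6 (-0.36, adjusted p = 0.0221) were called lower. The 8 markers of loop, distal tubule and collecting duct, of which Calb1 was detected on no array, summed to between 28160 and 32082 in CON 1W and between 32920 and 35768 in RES 1W. At 7 weeks they summed to between 29617 and 31624 in CON 4W and between 31341 and 34268 in RES 4W, with or without replicate 1. Here too the single markers differed. In RES 1W, Slc12a1 (0.56), Aqp2 (1.46) and Aqp3 (0.50) were called higher (adjusted p = 0.00835, 0.00198 and 0.00491). Umod (0.09), Slc12a3 (-0.04), Slc26a4 (-0.000631) and Atp6v1b1 (-0.20) were not called. In RES 4W only Aqp2 was called (2.11, adjusted p = 0.000703). Without RES 4W replicate 1, Aqp2 (2.40, adjusted p = 1.63e-06) and Atp6v1b1 (0.80, adjusted p = 0.0271) were called higher. Lcn2, a gene of tubular injury, was higher in both restricted groups, with a log2 change of 0.80 after 1 week (SE 0.17, adjusted p = 0.0145) and of 0.86 after 4 weeks (SE 0.18, adjusted p = 0.0187), or 0.87 without RES 4W replicate 1 (adjusted p = 0.00425). Havcr1, the other injury gene tested, was not called after 1 week (0.03, adjusted p = 0.963) or 4 weeks (0.40, adjusted p = 0.134). Without RES 4W replicate 1 it changed by 0.37 (adjusted p = 0.139), and a further injury gene, Krt20, was detected on no array. The part of these shifts in the changes of the glutathione S-transferases was not tested.

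After 1 week of restriction, 2 of 16 glutathione S-transferase probes were called, where 2.81% of all tested probes were. Both, Gsta2 and Gsta4, were higher in RES 1W, where 1.42% of all were called higher. The median log2 change over the 16 probes was 0.26, against -0.00 over all tested probes, and 13 of the 16 estimates were above 0. Restricted and control arrays were fully separated for 5 of the 16, as for 10.1% of all tested probes. After 4 weeks of restriction, 4 of 16 probes were called, where 6.49% of all tested probes were. Gsto1 and 1 probe of Gstp1 rose, where 3.63% of all were called higher, and 1 probe each of Gsta3 and Gstk1 fell, where 2.86% of all were called lower. The median change was -0.09, against 0.00 over all tested probes, and the groups did not overlap for 5 of 16, against 14.7% of all. The median was -0.05 without RES 4W replicate 1, against 0.01, and 12 of 16 did not overlap, against 40.6% of all. Between the control ages, 1 of 16 probes was called, where 2.97% of all were. It was Gsto1, lower at 7 weeks, where 1.79% of all were called lower. The control groups did not overlap for 9 of 16 probes, against 16.7% of all. The effect of restriction differed between the ages for 1 of 16 probes, Gsta2, where 0.583% of all tested probes were called. The age comparison shares the CON 1W arrays with the first comparison and the CON 4W arrays with the second.

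**Figure D1:**
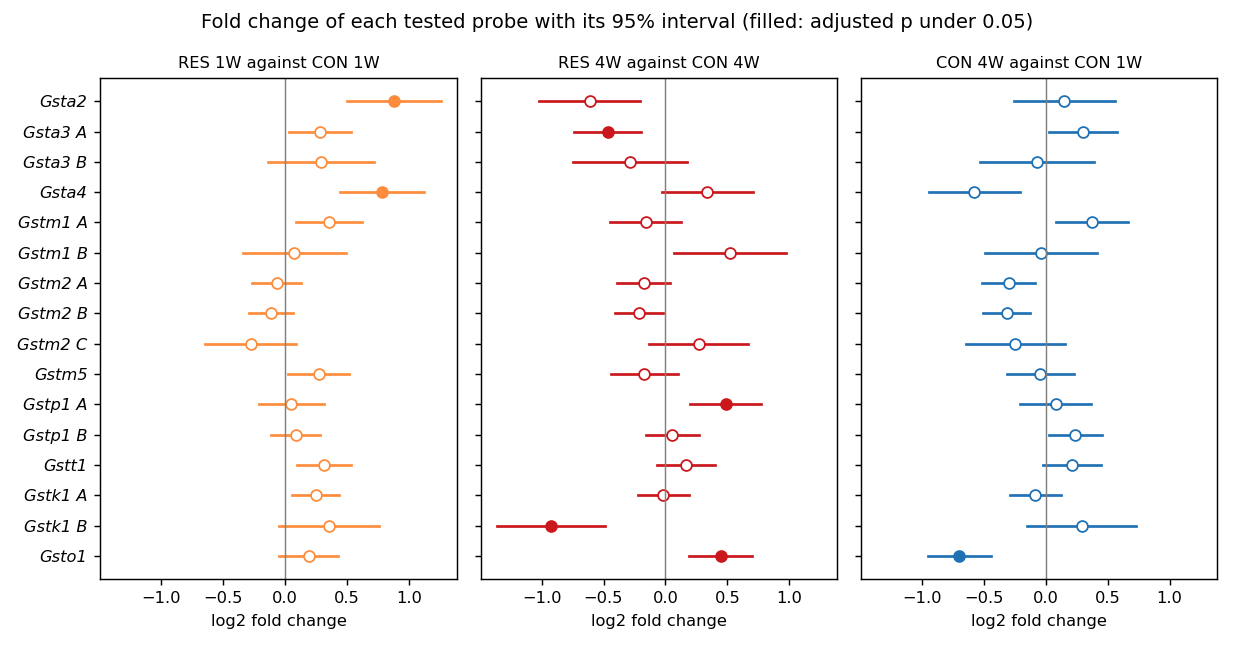
Log2 fold change of the 16 tested glutathione S-transferase probes (points, with 95% intervals) in RES 1W against CON 1W (left), RES 4W against CON 4W (middle) and the older against the younger controls (right), with a letter where a gene has several probes. Gstm1 B was not above background in either control group, so its points are no measured folds. Filled points are the 2, 4 and 1 probes called, and in the first panel 13 of 16 points lie to the right of 0.

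The alpha class genes encode enzymes with peroxidase activity towards lipid hydroperoxides. Gsta2 was read by 1 probe. Its level was 7.49, 7.20, 6.82 and 7.36 in CON 1W and 8.15, 8.01, 8.19 and 8.05 in RES 1W. Every RES 1W array lay above every CON 1W array. The log2 change was 0.88 (SE 0.18, adjusted p = 0.0116), a rise of 1.84-fold, and it was called whichever array was left out. The adjusted p was 0.077 by the methods' t-test, and 0.060 with runs of 6 columns of the deposited table as a block (0.86). At 7 weeks the level was 7.20, 7.55 and 7.35 in CON 4W and 7.20, 6.25, 6.62 and 6.94 in RES 4W. RES 4W replicate 1 reached the level of the lowest CON 4W array, and replicates 2 to 4 lay below all of them. The log2 change was -0.61 (SE 0.19), which missed the threshold with all arrays (adjusted p = 0.0629) and passed it without RES 4W replicate 1 (-0.76, SE 0.18, adjusted p = 0.00566).

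The restriction effect on Gsta2 differed between the ages, with a log2 difference of -1.49 (SE 0.26, adjusted p = 0.025). Without RES 4W replicate 1 the difference was -1.64 (adjusted p = 0.000424). The call was lost, at an adjusted p of up to 0.0632, without CON 1W replicate 3, RES 1W replicate 1 or 4, CON 4W replicate 2 or 3, or RES 4W replicate 3. With runs of 6 columns as a block the adjusted p was 0.127 (-1.29). By mean level the groups ran RES 1W (8.10 ± 0.08, SD, n = 4), CON 4W (7.37 ± 0.17, n = 3), CON 1W (7.22 ± 0.29, n = 4) and RES 4W (6.76 ± 0.41, n = 4). RES 1W was clear of its neighbour in that order and the other neighbours overlapped.

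Gsta1, which is not among the 10 genes and is a close relative of Gsta2, was read by 1 tested probe and was called in RES 1W as well. Its mean level in CON 1W was 7.94 ± 0.36 (SD, n = 4) and in RES 1W 8.76 ± 0.08 (n = 4), a rise of 0.82 (SE 0.19, adjusted p = 0.0276). In RES 4W against CON 4W its change was -0.34 (SE 0.21, adjusted p = 0.319), or -0.43 without RES 4W replicate 1 (adjusted p = 0.165), and the difference between the ages was -1.16 (SE 0.28, adjusted p = 0.0639), or -1.25 without that array (adjusted p = 0.00791). The probe sequences were not used here, so whether each probe reads only 1 of these related transcripts was not tested. The promoters of the pair are shown because both genes were called higher in RES 1W and lie on the same chromosome. Each is given as the 250 bases before the gene start in RefSeq (GRCm38.p6), Gsta1 at chr9:78230419-78230668 on the plus strand and Gsta2 at chr9:78347146-78347395 on the minus strand, with the longest run the windows share, 29 bases, in capitals.
Gsta1: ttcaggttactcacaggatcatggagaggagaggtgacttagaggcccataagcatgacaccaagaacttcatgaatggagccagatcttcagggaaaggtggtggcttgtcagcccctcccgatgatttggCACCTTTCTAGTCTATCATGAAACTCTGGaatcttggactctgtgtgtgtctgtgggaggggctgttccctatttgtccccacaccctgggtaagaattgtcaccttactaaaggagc
Gsta2: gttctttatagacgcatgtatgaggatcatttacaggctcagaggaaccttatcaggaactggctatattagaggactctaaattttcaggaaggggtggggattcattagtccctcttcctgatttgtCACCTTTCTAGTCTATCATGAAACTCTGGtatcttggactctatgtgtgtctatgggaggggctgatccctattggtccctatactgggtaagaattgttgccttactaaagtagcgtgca
In a global alignment, 184 of 250 bases were identical between Gsta1 and Gsta2. Over the other 44 pairs among Gsta1 and the 9 members with a promoter in the RefSeq table, the number of identical bases ran from 117 to 150. Neither window held the antioxidant response element core TGACNNNGC, the letters to which Nrf2 and small Maf proteins bind, on either strand. Only these 250 bases were searched, so whether either gene has the core elsewhere was not tested.

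Gsta4 encodes the alpha enzyme that favours hydroxynonenal, an aldehyde of lipid peroxidation, and lies next to Gsta1 on chromosome 9. Its level was 8.95, 9.05, 8.72 and 8.83 in CON 1W and 9.69, 9.99, 9.30 and 9.71 in RES 1W. The groups did not overlap, and the rise was 0.78 (SE 0.16, adjusted p = 0.0131), or 1.72-fold. Without CON 1W replicate 3 the adjusted p was 0.0501. It was 0.1 by the methods' t-test, and 0.0204 with runs of 6 columns as a block (0.95). In CON 4W the level was 8.27, 8.28 and 8.38, and in RES 4W it was 8.18, 8.94, 8.61 and 8.86. RES 4W replicate 1 was the lowest of these 7 arrays, and replicates 2 to 4 were the 3 highest. The change of 0.34 (SE 0.17) was not called with all arrays (adjusted p = 0.237) and was called without RES 4W replicate 1 (0.49, SE 0.15, adjusted p = 0.0255). Every CON 4W array lay below every CON 1W array. That change of -0.58 (SE 0.17) missed the threshold with all arrays (adjusted p = 0.0913) and passed it without RES 4W replicate 1 (adjusted p = 0.0281). The difference of the restriction effect between the ages was -0.45 (95% interval -0.95 to 0.05, adjusted p = 0.322), or -0.29 without RES 4W replicate 1 (adjusted p = 0.359).

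Gsta3, an alpha form that also isomerizes steroids, was read by 2 probes. On probe A, the brighter, the level was 11.33, 11.33, 10.93 and 11.15 in CON 1W and 11.61, 11.58, 11.19 and 11.48 in RES 1W. These groups overlapped, and the change of 0.28 (SE 0.12) was not called (adjusted p = 0.281). At 7 weeks the level was 11.50, 11.53 and 11.43 in CON 4W and 11.15, 10.97, 10.84 and 11.12 in RES 4W. All 4 RES 4W arrays, replicate 1 included, lay below all CON 4W arrays. The log2 change was -0.47 (SE 0.13, adjusted p = 0.0421), a fall of 1.38-fold, and it was -0.51 without RES 4W replicate 1 (adjusted p = 0.0115). The call was lost, at an adjusted p of up to 0.128, without any 1 of the CON 4W arrays, RES 4W replicates 2, 3 or 4, CON 1W replicate 4, or RES 1W replicates 1 or 4. The adjusted p was 0.213 by the methods' t-test, and 0.136 with runs of 6 columns as a block (-0.43). On probe B the change in RES 4W was -0.29 (SE 0.22, adjusted p = 0.435), with the same sign, and -0.34 without RES 4W replicate 1 (adjusted p = 0.319). The difference between the ages was -0.75 on probe A (SE 0.18), not called with all arrays (adjusted p = 0.0624) and called without RES 4W replicate 1 (-0.79, adjusted p = 0.00725).

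The promoter of Gsta3 is shown since it is the only alpha promoter of the 3 shown here that held the antioxidant response element core. The window is chr1:21240335-21240584, plus strand, and the capitals mark the match, which starts 121 bases before the gene start.
Gsta3: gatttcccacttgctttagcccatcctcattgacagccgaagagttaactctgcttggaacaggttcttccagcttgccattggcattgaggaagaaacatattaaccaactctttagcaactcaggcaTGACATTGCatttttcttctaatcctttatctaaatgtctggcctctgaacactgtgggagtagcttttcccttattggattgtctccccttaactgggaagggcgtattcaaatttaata
The core was searched on both strands as TGACNNNGC. It lay in 2 of 9 member promoters, Gsta3 and Gstm5, and in 10.2% of 32851 promoter windows of the same length. The sites searched for HNF1 (GTTAAT and ATTAAC with any 1 base between) and HNF4 (AGGTCA and a second AGGTCA with any 1 base between), factors of the proximal tubule, were in none of the 9 and in 0.00913% and 0.0335% of all windows. Such letters are a description of the window and do not show that a factor binds there.

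**Figure D2:**
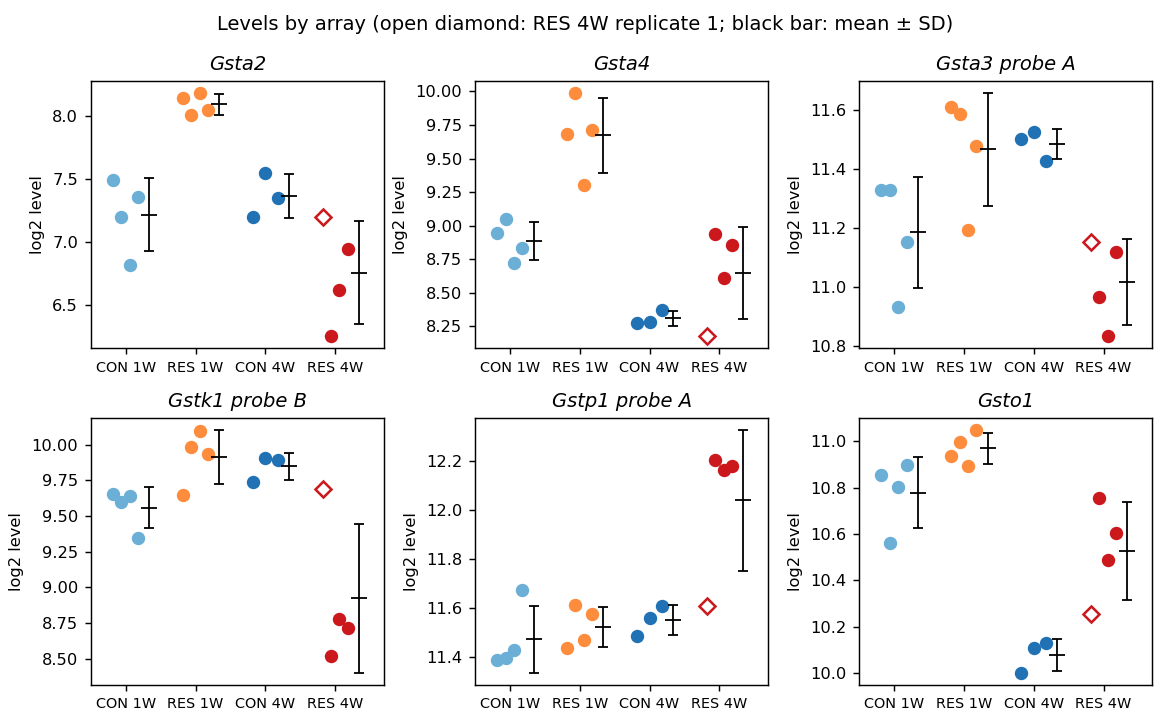
Log2 level (y axis) of 6 probes by array in the 4 groups, with the mean ± SD as a black bar and RES 4W replicate 1 as an open diamond. Gsta2 and Gsta4 are highest in RES 1W, and on the Gstk1 B and Gstp1 A probes RES 4W replicate 1 lies beside the CON 4W arrays, away from replicates 2 to 4.

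The mu class genes encode abundant conjugating enzymes and lie together on chromosome 3. None of their 6 tested probes was called by limma in any of the 4 comparisons with all arrays, and at an unadjusted p under 0.05 there were 2 in RES 1W, 2 in RES 4W, 3 with age and 3 for the difference between the ages. Gstm1 probe A was at 10.94, 10.64, 10.62 and 10.71 in CON 1W and at 10.99, 10.78, 11.37 and 11.19 in RES 1W. The groups overlapped, with a change of 0.35 (SE 0.13, adjusted p = 0.175). At 7 weeks it was at 11.20, 11.04 and 11.06 in CON 4W and at 10.74, 10.94, 11.08 and 10.99 in RES 4W. These also overlapped (-0.16, 95% interval -0.45 to 0.13, adjusted p = 0.496). CON 4W lay wholly above CON 1W, by 0.37 (SE 0.14, adjusted p = 0.176). Gstm1 probe B was detected on no CON 1W or CON 4W array, on 1 of 4 RES 1W arrays and on 3 of 4 RES 4W arrays. Its RES 4W levels were 4.37, 4.98, 5.40 and 5.56, with replicate 1 the lowest. Replicate 1 lay below every CON 4W array, so the groups overlapped, and the difference was not called with all arrays (adjusted p = 0.137). The RES 4W mean was 1.15-fold the CON 4W mean when the latter was held at the lowest detected signal. Without RES 4W replicate 1, the lowest array, this ratio was 1.35-fold and the difference was called (adjusted p = 0.0024). Probe A changed by -0.09 (adjusted p = 0.672) in that fit. Probe B passed the detection filter only because of its RES 4W arrays. The filter thus favoured a higher RES 4W level, and neither the ratios nor the call of probe B are support for a rise.

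Gstm2 was read by 3 probes. Probe A was at 12.24, 12.23, 12.28 and 12.54 in CON 1W and at 12.18, 12.34, 12.30 and 12.21 in RES 1W, which overlap. It was at 11.90, 12.09 and 12.08 in CON 4W and at 11.89, 11.87, 11.82 and 11.81 in RES 4W, where every RES 4W array was the lower. Probe B was at 12.18, 12.09, 12.24 and 12.34 in CON 1W, 12.11, 12.17, 12.07 and 12.06 in RES 1W, 11.94, 11.85 and 11.90 in CON 4W, and 11.75, 11.67, 11.63 and 11.68 in RES 4W. On both probes the mean was highest in CON 1W, then in RES 1W, then in CON 4W and lowest in RES 4W, with both 7-week groups clear of their neighbours. The steps were small: RES 4W against CON 4W was -0.18 on probe A (SE 0.10, adjusted p = 0.289) and -0.21 on probe B (SE 0.09, adjusted p = 0.148), and -0.19 and -0.24 without RES 4W replicate 1 (adjusted p = 0.209 and 0.0746). CON 4W against CON 1W was -0.30 on probe A (SE 0.10, adjusted p = 0.135) and -0.32 on probe B (SE 0.09, adjusted p = 0.0756). Without RES 4W replicate 1, the age change of probe B was called (adjusted p = 0.0463).

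Probe C of Gstm2 had the opposite sign in RES 4W. It was at 8.62, 8.71 and 8.70 in CON 4W and at 8.32, 9.30, 9.13 and 9.04 in RES 4W. RES 4W replicate 1 was below all CON 4W arrays and replicates 2 to 4 were above them, so the change of 0.27 (SE 0.19) was not called with all arrays (adjusted p = 0.393). Without that array it was 0.48 (SE 0.13, adjusted p = 0.0175).

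Gstm5 was at 9.95, 9.81, 9.75 and 10.001 in CON 1W and at 10.22, 10.13, 10.09 and 10.15 in RES 1W. The groups did not overlap, but the change of 0.27 (SE 0.12) did not pass the test over all probes (adjusted p = 0.296, exact permutation p = 0.0286, two-sided). At 7 weeks it was at 9.74, 9.84 and 9.92 in CON 4W and at 9.98, 9.36, 9.59 and 9.72 in RES 4W, with replicate 1 the highest and replicates 2 to 4 below every CON 4W array. The change was -0.17 (SE 0.13, adjusted p = 0.426), or -0.28 without replicate 1 (adjusted p = 0.0831). The difference between the ages was -0.44 (SE 0.17, adjusted p = 0.185) and was called without RES 4W replicate 1 (-0.55, adjusted p = 0.0199).

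Gstp1, the pi class enzyme, also binds and restrains the stress kinase JNK. It was read by 2 tested probes and by another that was detected on no array. Probe A was at 11.39, 11.40, 11.43 and 11.67 in CON 1W and at 11.44, 11.61, 11.47 and 11.57 in RES 1W. These groups overlapped (0.05, 95% interval -0.21 to 0.32, adjusted p = 0.917). It was at 11.49, 11.56 and 11.61 in CON 4W and at 11.61, 12.20, 12.16 and 12.18 in RES 4W. RES 4W replicate 1 matched the highest CON 4W array and replicates 2 to 4 lay above all others. The rise was 0.49 (SE 0.14, adjusted p = 0.0429), or 1.402-fold, and 0.63 without RES 4W replicate 1 (SE 0.10, adjusted p = 0.000385). Leaving out any other single array except CON 1W replicate 4 ended the call, at an adjusted p of up to 0.127. The adjusted p was 0.302 by the methods' t-test, and 0.193 with runs of 6 columns as a block (0.38).

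Probe B of Gstp1 was at 11.53, 11.37 and 11.48 in CON 4W and at 11.47, 11.64, 11.50 and 11.43 in RES 4W. These levels overlapped, and the change was 0.05 (95% interval -0.16 to 0.27, adjusted p = 0.783). Without RES 4W replicate 1 it was 0.07 (adjusted p = 0.699). Against CON 1W, at 11.23, 11.12, 11.28 and 11.26, every CON 4W array was higher on probe B, by 0.24 (SE 0.10, adjusted p = 0.251), while probe A changed by 0.08 (SE 0.14, adjusted p = 0.822).

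Gstp1 has a neighbour on chromosome 19, Gstp2, and which of the pair each probe reads was not tested. Gstp2 was at 6.06 ± 0.34 (SD, n = 4) in CON 1W and at 6.85 ± 0.24 (n = 3) in CON 4W, a rise of 0.79 with age (SE 0.19, adjusted p = 0.0305). Its change in RES 4W was 0.21 (SE 0.19, adjusted p = 0.523), or 0.34 without RES 4W replicate 1 (adjusted p = 0.195). The Gstp1 promoter, chr19:4037913-4038162 on the minus strand of GRCm38.p6, is shown for the AP-1 letters TGACTCA that it carries on the other strand, in capitals, from 74 bases before the gene start.
Gstp1: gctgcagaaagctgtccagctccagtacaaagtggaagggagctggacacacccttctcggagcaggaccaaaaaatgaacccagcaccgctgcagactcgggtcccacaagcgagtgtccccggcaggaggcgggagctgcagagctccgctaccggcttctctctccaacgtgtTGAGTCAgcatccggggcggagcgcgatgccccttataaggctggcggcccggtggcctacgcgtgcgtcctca
These letters were searched after the data were seen. They lay in 2 of 9 member promoters, Gstp1 and Gstm5, and in 4.46% of all windows.

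Gstt1, the theta class enzyme that acts on halogenated methanes, was at 10.48, 10.77, 10.59 and 10.74 in CON 1W and at 10.83, 11.07, 10.91 and 11.03 in RES 1W. The groups did not overlap, and the change of 0.31 (SE 0.10) missed the threshold (adjusted p = 0.127, exact permutation p = 0.0286, two-sided). At 7 weeks it was at 10.92, 10.90 and 10.75 in CON 4W and at 10.86, 11.09, 10.98 and 11.17 in RES 4W. The groups overlapped through RES 4W replicate 1, with a change of 0.17 (95% interval -0.06 to 0.40, adjusted p = 0.357), or 0.22 without that array (adjusted p = 0.155).

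Gstk1, the kappa enzyme of mitochondria and peroxisomes, was read by 2 probes, of which only B was called in RES 4W. Probe B was at 9.74, 9.91 and 9.89 in CON 4W and at 9.69, 8.52, 8.78 and 8.71 in RES 4W. Replicate 1 lay just under the lowest CON 4W array, and replicates 2 to 4 lay about a whole log2 unit lower. The change was -0.92 (SE 0.21, adjusted p = 0.0224), a fall of 1.90-fold, and -1.18 without RES 4W replicate 1 (SE 0.13, adjusted p = 2.25e-05). The call was lost without any 1 of the CON 4W arrays or of RES 4W replicates 2, 3 and 4, at an adjusted p of up to 0.073. The adjusted p was 0.294 by the methods' t-test, and 0.0876 with runs of 6 columns as a block (-0.67). On probe A, the level was 11.95, 11.97 and 11.91 in CON 4W and 11.90, 11.89, 11.85 and 12.07 in RES 4W. These overlapped, and the change was -0.02 (95% interval -0.22 to 0.19, adjusted p = 0.936), and -0.01 without RES 4W replicate 1.

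In the younger mice the estimates of both Gstk1 probes were above 0. Probe A was at 11.92, 12.10, 12.02 and 12.08 in CON 1W and at 12.36, 12.34, 12.12 and 12.28 in RES 1W, without overlap, by 0.25 (SE 0.09, adjusted p = 0.185). Probe B was at 9.65, 9.60, 9.64 and 9.34 in CON 1W and at 9.65, 9.98, 10.09 and 9.93 in RES 1W, by 0.36 (SE 0.19, adjusted p = 0.438). Neither was called. The difference between the ages was -1.28 on probe B (SE 0.28, adjusted p = 0.0509) and was called without RES 4W replicate 1 (-1.53, adjusted p = 0.000116). On probe A it was -0.26 (95% interval -0.54 to 0.02, adjusted p = 0.295), or -0.25 without that array (adjusted p = 0.225).

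Gsto1, the omega enzyme, reduces dehydroascorbate and removes glutathione from proteins. Its level was 10.86, 10.56, 10.80 and 10.90 in CON 1W and 10.003, 10.11 and 10.13 in CON 4W. Every CON 4W array was the lower, and the fall with age was the only member change called between the controls (-0.70, SE 0.12, adjusted p = 0.00378), a 1.62-fold fall. It was called whichever array was left out. The adjusted p was 0.0791 by the methods' t-test. With runs of 6 columns of the deposited table as a block it was 0.574 (-0.61). No run holds arrays of both control groups, so within the controls age and column run cannot be told apart. The block estimate rests on restricted arrays that lie in more than 1 run. The same layout underlies every other age change given here. RES 4W was at 10.26, 10.76, 10.49 and 10.61, all above CON 4W and with replicate 1 the nearest to it. The rise was 0.45 (SE 0.12, adjusted p = 0.0396), or 1.36-fold, and 0.54 without RES 4W replicate 1 (SE 0.11, adjusted p = 0.00238). This call was lost without any 1 of the CON 4W arrays, RES 4W replicates 2, 3 or 4, or RES 1W replicate 1, at an adjusted p of up to 0.119. The adjusted p was 0.263 by the methods' t-test, and 0.167 with runs of 6 columns as a block (0.39). RES 1W was at 10.94, 10.997, 10.89 and 11.05, with a change of 0.19 (SE 0.11, adjusted p = 0.491), and the difference between the ages was 0.26 (95% interval -0.09 to 0.60, adjusted p = 0.416), or 0.35 without RES 4W replicate 1 (adjusted p = 0.125). By mean the groups ran RES 1W, CON 1W, RES 4W and CON 4W, and only CON 4W was clear of its neighbour.

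For 11 of the 16 probes, RES 4W replicate 1 was nearer to the CON 4W mean than to the mean of RES 4W replicates 2 to 4. The array was set aside for its likeness to CON 4W, so more calls without it can follow from that choice alone. Without it, 8 of 16 probes were called in RES 4W against CON 4W, where 24.2% of all tested probes were called, 5 of them higher (12.9% of all) and 3 lower (11.3% of all). The higher ones were Gsta4, Gstm1 B, Gstm2 C, Gstp1 A and Gsto1, and the lower ones Gsta2, Gsta3 A and Gstk1 B. Of these, Gstm1 B entered the test only through its RES 4W arrays. The difference between the ages was then called for 7 of 16 probes, where 15.1% of all were, and the age change of the controls for 3 of 16, where 4.89% of all were. The called differences ran both ways. They were below 0 for Gsta2, Gsta3 A, Gstm5 and Gstk1 B. They were above 0 for Gstm2 C (0.76, adjusted p = 0.01), Gstp1 A (0.58, adjusted p = 0.00864) and Gstm1 B, whose filter favoured that sign. With all arrays the differences of Gstm2 C and Gstp1 A were 0.55 and 0.44, not called (adjusted p = 0.263 and 0.216). In the column order of the deposited table, RES 4W replicates 2 to 4 and CON 4W replicate 1 lie in columns 7 to 12, and RES 4W replicate 1 and CON 4W replicates 2 and 3 in columns 13 to 15. RES 4W minus CON 4W for Gstk1 B was -1.07 within the first of these sets and -0.21 within the second. The same values were 0.70 and 0.03 for Gstp1 A, 0.61 and 0.14 for Gsto1, and -0.53 and -0.32 for Gsta3 A. What the column order stands for is not stated, and its part in these values cannot be told apart from that of the array.

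**Figure D3:**
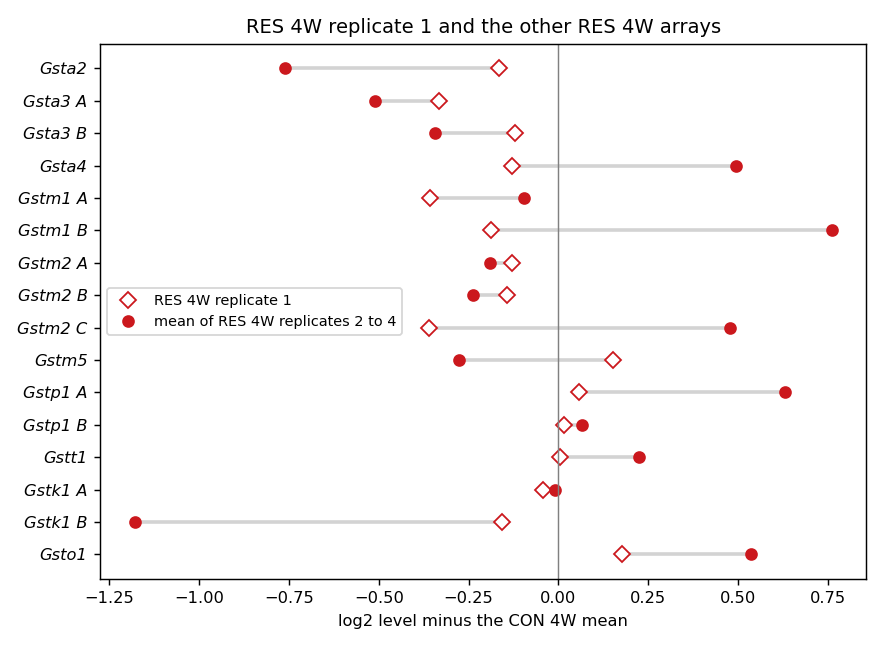
Log2 level minus the CON 4W mean (x axis) for RES 4W replicate 1 (open diamonds) and for the mean of RES 4W replicates 2 to 4 (filled points) on the 16 tested probes. On 11 of 16 probes the diamond is nearer to 0, the CON 4W mean, than to the filled point.

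Probes of 1 gene were compared for 7 pairs in 3 comparisons, 21 exact permutation tests in all, and none passed after adjustment (smallest adjusted p = 0.3). In RES 4W against CON 4W, Gstk1 A and B changed by -0.02 and -0.92 (exact permutation p = 0.0857), and Gstp1 A and B by 0.49 and 0.05 (exact permutation p = 0.0857). The exact permutation p without RES 4W replicate 1 was 0.1 for both pairs, the smallest that 3 arrays against 3 allow. With all arrays no single test can give a p under 0.0286. The values of the Gstm1 pair are not given, since probe B was not above background in the controls.

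**Figure D4:**
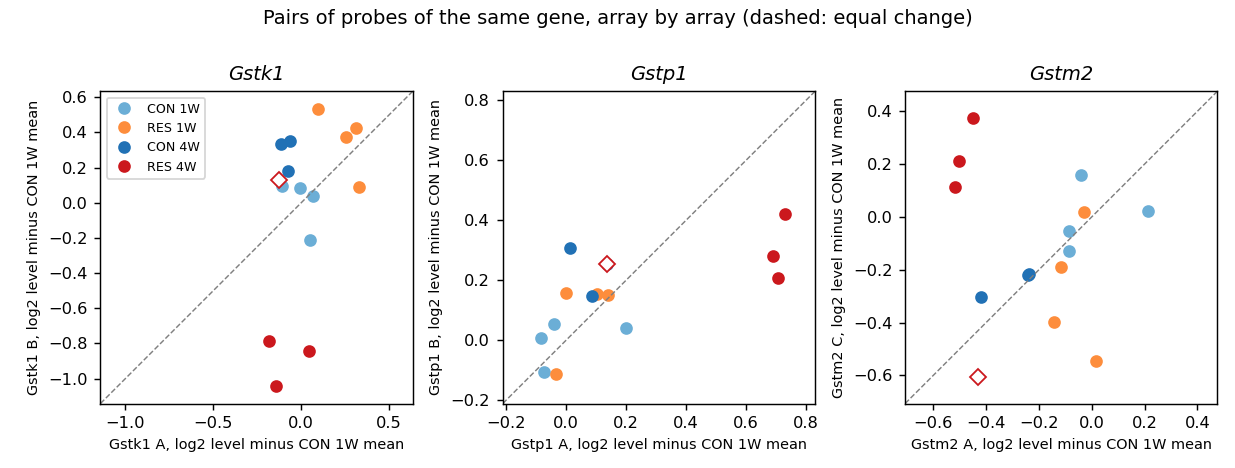
Log2 level minus the CON 1W mean for pairs of probes of Gstk1, Gstp1 and Gstm2, 1 point per array, with RES 4W replicate 1 as an open diamond and equal change as a dashed line. In each panel RES 4W replicates 2 to 4 form a set of 3 points away from the line and RES 4W replicate 1 lies apart from them.

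Of 66 other genes of glutathione handling, 46 had a tested probe, each gene being read from its brightest. In RES 1W, 6 of 46 were called, 3 higher and 3 lower, where 3.4% of all genes were called. In RES 4W, 2 of 46 were called, where 5.83% of all genes were. With age in the controls, 4 of 46 were called, 2 in each direction, where 3.42% of all were, and for the difference between the ages none was called by limma or by the methods' analysis of variance, where 0.572% of all were, with 10 at an unadjusted p under 0.05. The median change of the 46 lay between -0.03 and 0.08 in the 4 comparisons, and was 0.01 in RES 4W with or without replicate 1. The brightest probe did not hold every call. Over all 73 tested probes of these genes, 9 were called in RES 1W, 4 in RES 4W and 4 with age.

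Among 13 tested further glutathione S-transferases, read from their brightest probe, only Gsta1 was called in RES 1W and only Gstp2 with age. In RES 4W limma called none of the 13, with 4 at an unadjusted p under 0.05. Gstt2, of the theta class, had a second and dimmer probe that was called higher in RES 4W (0.89, SE 0.22, adjusted p = 0.0302), by 1.06 without RES 4W replicate 1 (adjusted p = 0.00159). Its brightest probe changed by 0.25 (adjusted p = 0.189), or 0.26 without that array (adjusted p = 0.129). Gstm7, a neighbour of Gstm5, had a change of 0.54 in RES 1W that missed the threshold (SE 0.14, adjusted p = 0.0509). Gstt3, a neighbour of Gstt1, had a change of -0.50 in RES 4W (SE 0.15), which was not called with all arrays (adjusted p = 0.0605) and was called without RES 4W replicate 1 (-0.65, adjusted p = 0.00153). The other 8, Gstm4, Gstm6, Gsto2, Gstz1, Gstcd, Mgst1, Mgst3 and Ptges, were called in no comparison with all arrays. Without RES 4W replicate 1, 4 of the 13 were called in RES 4W on their brightest probe, where 21.6% of all genes were. Besides Gstt3, Gstm6 (0.63), Gstz1 (0.27) and Mgst3 (0.39) were called higher, at adjusted p of 0.0385, 0.0338 and 0.0237. Gsta13, Gstm3, Gstp3, Gstt4, Mgst2 and Hpgds were not tested. The median change of the 13 was 0.20 in RES 1W and 0.06 in RES 4W, or 0.17 without RES 4W replicate 1.

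Of the genes that make, use and clear glutathione, Chac1, which degrades it inside the cell, was higher by 1.10 in RES 1W (SE 0.23, adjusted p = 0.0145). The dipeptidases Dpep1 of the brush border and Cndp2 of the cytosol, which split the cysteinylglycine left by glutathione breakdown, fell by 0.65 (SE 0.17, adjusted p = 0.0443) and by 0.66 (SE 0.16, adjusted p = 0.0346). Slc22a6, the basolateral organic anion transporter and itself one of the proximal tubule markers, fell by 0.49 (SE 0.10, adjusted p = 0.0113). The export pump Abcc5 rose in both restriction comparisons, with a log2 change of 0.44 after 1 week (SE 0.10, adjusted p = 0.0177) and of 0.64 after 4 weeks (SE 0.10, adjusted p = 0.00729). Nat8, which acetylates cysteine conjugates in the last step to mercapturates, was lower in RES 4W (-0.52, SE 0.13, adjusted p = 0.0309). Ggct, which splits gamma-glutamyl amino acids, and Gss, the second enzyme of glutathione synthesis, were called with all arrays only on dimmer probes and were named after their values were seen. In RES 1W, 2 of 3 Ggct probes fell by 0.66 (SE 0.14, adjusted p = 0.0136) and by 0.71 (SE 0.15, adjusted p = 0.0159), and the brightest changed by -0.40 (SE 0.18, adjusted p = 0.303). Without RES 4W replicate 1, the same 2 Ggct probes were called lower in RES 4W (-0.51 and -0.58, adjusted p = 0.0135 and 0.00312). The brightest was not (-0.52, adjusted p = 0.0567). In RES 4W, 1 of 4 Gss probes was called higher (0.83, SE 0.22, adjusted p = 0.0407), by 1.07 without RES 4W replicate 1 (adjusted p = 0.000356). The brightest Gss probe changed by 0.30 (adjusted p = 0.176), or 0.42 without that array (adjusted p = 0.0124). The remaining Gss probes were called in neither fit. With age, the apical pump Abcc2 rose by 0.49 (SE 0.13, adjusted p = 0.048), and Dpep1 and the endoplasmic reticulum peroxidase Gpx7 fell by 0.79 (SE 0.18, adjusted p = 0.0247) and by 0.69 (SE 0.15, adjusted p = 0.0181). Without RES 4W replicate 1, 16 of the 46 genes were called in RES 4W against CON 4W, where 21.6% of all genes were. Abcc5 (0.67, adjusted p = 0.000368) and Nat8 (-0.62, adjusted p = 0.00119) were among them. So was Gclm, the modifier subunit of the enzyme that starts glutathione synthesis (-0.82, adjusted p = 9.11e-05), which was named after its value was seen.

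Of 9 tested genes of the Nrf2 axis, the regulator of many glutathione genes and its usual targets, limma called none in RES 1W, in RES 4W or for the difference between the ages, with 2, 1 and 0 at an unadjusted p under 0.05. The median change of the 9 was 0.18 in RES 1W and 0.12 in RES 4W, or 0.08 without RES 4W replicate 1. Each gene was read from its brightest probe. Without that array, 2 of the 9 were called in RES 4W, where 21.6% of all genes were, and both were higher, where 9.77% of all were: Nqo1 (0.49, adjusted p = 0.0326) and Ephx1 (0.38, adjusted p = 0.0338). A dimmer probe of Keap1 was called lower in that fit (-0.52, adjusted p = 0.00389), while its brightest changed by -0.05 (adjusted p = 0.802). With age, Cbr1, a carbonyl reductase, was the only one called (-0.49, SE 0.12, adjusted p = 0.0322).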

How the data were processed

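Total RNA from mouse kidneys was amplified, labelled and hybridised to Illumina mouse arrays by the authors, who processed the scans with GenomeStudio 1.0.2. The authors had subtracted background from the deposited intensity and applied quantile normalization, and 34.9% of them were at or below 0. Each deposited intensity came with a detection p-value. The deposited log2 table of the authors holds the log2 of the same intensities, with 52.2% of the values missing, all of them intensities under 5. It served as an alternative only. No columns of the authors' own comparisons were used.

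Log2 levels were computed with limma 3.58.1 in R 4.3.3 by neqc (normexp background correction from the detection p-values, offset 16, quantile normalization). A probe was tested where 3 or more arrays had a detection p under 0.05, which held for 19027 of 45281. Symbols came from the platform annotation given with the series and were updated by gene ID for 34807 probes. Of all probes, 34885 had 1 symbol, 18 had several and 10378 had none. Probes of a gene carry letters by falling mean level. lmFit and eBayes were run with the 4 groups as means. P-values were two-sided and were adjusted over all tested probes of a comparison, save that the probe pairs were adjusted over their 21 exact permutation tests. Every adjusted p in the text is limma's unless the methods' t-test, their analysis of variance or an exact permutation test is named. A group was taken as not above background where no array had a detection p under 0.05. The number of arrays, not a depth, limits the precision. No exact permutation p can be under 0.0286, from 70 regroupings for 4 arrays against 4 and 35 for 3 against 4. Nothing in the sources ties an array to a litter or cage, and p-values measure the spread between these samples.

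The 10 members, the gene lists and the markers were chosen with earlier results of these data known. By the rule for names, all members are given probe by probe, with every further glutathione S-transferase and up to 5 called genes of each other list and comparison. No 2 arrays held identical values, and the highest correlation between 2 arrays was 0.995. Promoters were read from a RefSeq table (GRCm38.p6) that held 9 of the 10 members, and windows were aligned with Biopython 1.88. Alternatives were other background corrections, offsets, scalings, filters, priors and array weights, the authors' log2 values, the methods' analysis of variance, t-test and thresholds, the replicate number as a block, and each array left out in turn. The calling was tested on simulated data (seed 75604).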

Additional observations from a re-analysis of the deposited data

Results flagged for a closer look

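The restriction effect on Gsta2 differed between the ages by -1.49 on the log2 scale in the test of the difference itself (limma, adjusted p = 0.025), with a rise in all 4 RES 1W arrays over every CON 1W array and lower levels than every CON 4W array in 3 of 4 RES 4W arrays.

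In 4 of 48 groups of 4 arrays tested on the 16 probes, 1 array lay far from the other 3, where chance alone gives about 1 in 20. The gap to the nearest array was 0.934 of the whole range for Gstp1 A in RES 4W replicate 1 (11.61, the others from 12.16 to 12.20). It was 0.973 for Gstp1 B in RES 1W replicate 1 (11.11, the others from 11.37 to 11.38). In CON 1W replicate 4 it was 0.851 for Gstp1 A (11.67, the others from 11.39 to 11.43) and 0.846 for Gstm2 A (12.54, the others from 12.23 to 12.28).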

How the results depend on the processing

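Counts of called probes are given in the order RES 1W, RES 4W, control ages, difference between the ages. For the 16 glutathione S-transferase probes they were 2, 4, 1 and 1. They were 2, 2, 1 and 1 with no further background correction, 2, 5, 2 and 3 with an offset of 50, 2, 4, 1 and 2 with median scaling, and 2, 3, 2 and 1 on the authors' log2 values. With no filter on dim probes they were 2, 0, 2 and 0, and with the stricter filter 2, 5, 2 and 3. Fitting only the groups compared gave 2, 0 and 2, array weights 2, 9, 2 and 6, a trended and robust prior 3, 5, 4 and 3, the methods' analysis of variance 2, 0, 2 and 0, the methods' t-test 0, 0 and 0, and the methods' thresholds (adjusted p under 0.01, fold over 1.5) 0, 0, 1 and 0. Leaving out 1 array gave 1 to 2, 0 to 8, 1 to 3 and 0 to 7. The RES 1W count was 1 without CON 1W replicate 3. The RES 4W count was 0 without any 1 of the CON 4W arrays or RES 4W replicates 2, 3 and 4, and 8 without RES 4W replicate 1.

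For the 46 other glutathione genes the counts were 6, 2, 4 and 0. They were 5, 2, 3 and 0 with no further background correction, 9, 4, 6 and 1 with an offset of 50, 3, 1, 1 and 0 with no filter, 9, 3, 5 and 1 with the stricter filter, 7, 0 and 1 with only the groups compared, and 8, 18, 4 and 8 with array weights. A trended and robust prior gave 8, 4, 6 and 2, the methods' analysis of variance 3, 1, 1 and 0, the methods' t-test 0, 0 and 0, the methods' thresholds 0, 1, 0 and 0, and the mean of a gene's probes 9, 3, 5 and 0. Leaving out 1 array gave 2 to 8, 1 to 16, 0 to 7 and 0 to 6, with the highest values without RES 4W replicate 1.

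With the replicate number as a block the member counts were 2, 2, 1 and 2, and those of the other genes 5, 1, 1 and 0. The labels do not say what a number marks, and deviations of same-numbered arrays from their group means correlated between -0.118 and 0.186 over 21 pairs, with 1 pair over 0.1.

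With runs of 6 columns of the deposited table as a block, an alternative chosen after seeing the data, the member counts were 1, 0, 0 and 0.

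Over the single values of the probes, 1673 kept direction and side of the threshold, 82 lost the call, 44 gained one and 17 changed sign, none of the 17 called. The last were, with the column block, Gstm1 B in RES 1W (-0.10), and with age Gsta2 (-0.18), Gsta3 B (0.45), Gstk1 A (0.077) and Gstk1 B (-0.32), and Gstp1 B for the difference (0.00301). Gstk1 A in RES 4W was 0.000342 with median scaling, and leaving out 1 array took it from -0.0665 (without replicate 4) to 0.00951 (without replicate 3). Gstm1 B in RES 1W ran from -0.0188 (without RES 1W replicate 3) to 0.161, and Gstm2 A in RES 1W from -0.0974 to 0.00294 (without CON 1W replicate 4). With age, Gsta3 B ran from -0.202 to 0.046, above 0 without CON 1W replicate 4 or CON 4W replicate 3, and with the replicate block Gstm1 B was 0.014. Leaving out 1 array took Gstm1 B to between -0.103 and 0.0216, above 0 without CON 1W replicate 1 or CON 4W replicate 2. Gstp1 B for the difference ran from -0.0989 to 0.00303, above 0 without CON 1W replicate 2 or CON 4W replicate 1. The cause of these shifts was not tested.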
